A study of Mus musculus with 3 samples.

Results

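The rods of the mouse retina at postnatal day 14 (P14) were the 2271 cells that the authors' deposited annotation called rods, out of 3298 cells in the P14 library and 14611 cells in the 3 libraries of the series. The cells came from 5 labelled samples of littermate mice from an Sstr2 allelic series, called retinas here, of which 1 was wild type (+/+), 2 were heterozygous (+/-) and 2 were knockout (-/-). The mutant strain, C57BL/6NCrl-Sstr2 em1(IMPC)Mbp/Mmucd, carries a constitutive deletion and was outbred to CD1 mice, and heterozygous F1 animals were intercrossed. The background was thus mixed, and strain alleles linked to Sstr2 cannot be told apart from the genotype. No treatment was given. All 5 retinas were tagged with lipid barcodes (MULTI-seq), pooled and run in a single droplet-based library that reads the 3' ends of transcripts, so the genotypes did not differ in library. For maturation, the P14 rods were set against the 1142 cells annotated as photoreceptors in the P0 library, which held younger animals of the same allelic series with the same numbers of retinas per genotype. The number of animals or eyes behind each sample was not stated, so p-values measure only the spread between these samples, which may be technical. Of the rod barcodes, 3 were also in the P0 library and 2 in the explant library of the series.

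Rods are the photoreceptors of dim-light vision and the most numerous neurons of the mouse retina. They hold their visual pigment in the stacked discs of a modified cilium, the outer segment. There light sets off a cascade through the G protein transducin and a cGMP phosphodiesterase that closes cyclic-nucleotide-gated channels and lowers glutamate release at a ribbon synapse. Rods are born around birth in the mouse, are specified by the transcription factors Nrl and Nr2e3 acting with Crx, and build outer segments and synapses in the weeks that follow. Sstr2 is a receptor for the peptide somatostatin that signals through inhibitory G proteins, and the genotype comparison asked whether rods that had formed in its absence differed in their transcripts.

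The share of rods among the annotated cells was 66.8% in wild type, 77.3 and 80.9 in heterozygous and 53.9 and 71.4 in knockout retinas, or 668, 572, 246, 339 and 446 cells. Knockout 1 was the lowest and heterozygous 2 the highest, and the exact 95% intervals, which cover counting error only, ran from 49.9% to 57.8% and from 76% to 85.2% for these retinas. Among photoreceptors alone, rods were 95.2% in wild type, 96.6 and 95.7 in heterozygous and 90.9 and 96.5 in knockout retinas. Knockout 1 was the lowest here too, with 34 cones beside 339 rods, and knockout 2 was within the range of the others. The knockout difference from the other 3 retinas was -2.12 percentage points (exact permutation test, two-sided, p = 0.4, adjusted p = 0.6 over 4 measures). With 10 possible splits the smallest p such a test can give is 0.1, so no single measure could pass 0.05.

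The depth per rod was even across retinas. In total 8164830 unique molecular identifiers (UMIs, each standing for 1 captured transcript) were counted in rods, from 831215 in heterozygous 2 to 2670121 in the wild-type retina. The median rod held 3554 UMIs in wild type, 3309 and 3223 in heterozygous and 3313 and 3208 in knockout retinas and between 1485.5 and 1608.5 detected genes. The knockout retinas differed from the others by -102 UMIs and -33.5 genes (exact permutation test, p = 0.6 and p = 0.5). The share of rod UMIs from mitochondrially encoded transcripts was 5.39% in wild type, 5.77 and 6.20 in heterozygous and 6.13 and 4.42 in knockout retinas. It was lowest in knockout 2 and highest in heterozygous 2 with knockout 1 close behind, so that the knockout retinas held both the lowest and nearly the highest value (exact permutation test, p = 0.6). Rods were the least deep of the P14 classes, with a median of 3374 UMIs against 3939.5 in bipolar cells, 4513 in amacrine cells, 10245 in cones and 15108 in Müller glia.

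Genes of phototransduction were among the most abundant transcripts of rods. Levels are given in CPM, the UMIs of a gene per 1000000 UMIs of all genes in the rods of a retina, and as mean ± SD over the 5 retinas. They count 3' tags and were not scaled by transcript length. The 2 most abundant were the nuclear RNA Malat1 (86786 ± 6122) and Gm42418 (17932 ± 1716), a noncoding gene whose annotation overlaps a ribosomal RNA. Next stood Gngt1, the gamma subunit of rod transducin, at 15946 ± 1016, and the rod arrestin Sag was at 11611 ± 905. The 20 most abundant genes also held 6 mitochondrial transcripts led by mt-Co3, 5 further phototransduction genes (Pdc, Pde6g, Rcvrn, Gnb1 and Gnat1), the disc rim protein Rom1, and Tma7, H3f3b and Hmgn1, a nucleosome-binding protein. Together the 20 genes took between 24.3% and 25.2% of rod UMIs in a retina. The 21 genes of the phototransduction list took 7.93% in wild type, 8.05 and 8.82 in heterozygous and 8.56 and 8.34 in knockout retinas. The wild-type retina had the lowest phototransduction share and heterozygous 2 the highest, with both knockout retinas between the heterozygous ones.

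The rod label fitted its markers. The annotation may itself have used them, so the levels are a description and not a test. Nrl, the transcription factor that directs cells to the rod fate, was at 1689.8 CPM in wild type, 2061 and 1765 in heterozygous and 1932 and 2034 in knockout retinas. Gnat1, the alpha subunit of rod transducin, was at 4204 CPM in wild type, 4096 and 4271 in heterozygous and 4483 and 4039 in knockout retinas. Pde6a, a catalytic subunit of the rod phosphodiesterase, was at 939 CPM in wild type, 824 and 925 in heterozygous and 853 and 889 in knockout retinas. Each of the 5 markers (Nrl, Sag, Gnat1, Pde6a and Rp1, a microtubule protein of the outer segment axoneme) was within a narrow band over the 5 retinas, the widest relative spread being that of Nrl. After every cell was thinned to 1300 UMIs, a Pde6a UMI was found in 67.6% of rods and a Nrl UMI in 89.7% (before thinning 90.4% and 98.2%). Rod transcripts were also found in cells that should lack them. A Pde6a UMI was present in 14.7% and a Nrl UMI in 13.2% of the 68 amacrine cells at the same depth (44.1% and 32.4% before thinning, at a median of 4513 UMIs). In the 578 bipolar cells the thinned shares were higher, at 16.6% and 20.8% (38.6% and 44.3% before thinning). Over all cells of a type, Gnat1 stood at 4195 CPM in rods, 1299 in cones, 470.1 in bipolar cells, 333 in Müller glia and 206 in amacrine cells. Sag and Gngt1 reached further into cones, at 6194 and 8428 CPM against 11302 and 15761 in rods.

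**Figure D1:**
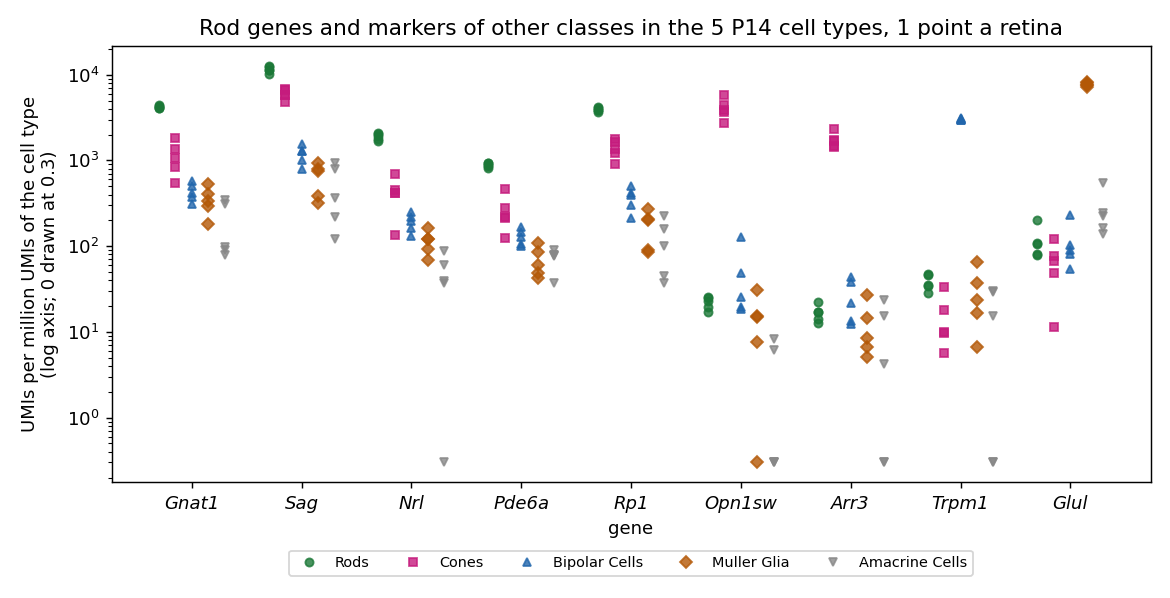
CPM of 5 rod genes (Gnat1, Sag, Nrl, Pde6a, Rp1), the cone genes Opn1sw and Arr3, the ON bipolar gene Trpm1 and the Müller gene Glul on a log axis, with 1 point for each of the 5 retinas and a symbol for each P14 cell type. Rods (circles) lay above the other types for the 5 rod genes and near the level of the non-expressing types for Opn1sw, Arr3, Trpm1 and Glul.

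Markers of other classes were low in rods. The 10 cone markers, all measured, summed to 231 CPM in wild type, 192 and 215 in heterozygous and 250.3 and 221 in knockout retinas, with Gnb3 the most abundant. The cone opsin Opn1sw was at 22.7 in rods against 4429 in cones. The 12 bipolar markers summed to between 323 and 349, with Prkca the most abundant, and the ON bipolar channel Trpm1 was at 38.7 in rods against 3013 in bipolar cells. The 10 Müller markers summed to 347 CPM in wild type, 347 and 254 in heterozygous and 639.7 and 264 in knockout retinas, with Glul the most abundant and none at 0. The sum in knockout 1 was above that of every other retina. The 4 measured haemoglobin and red cell markers summed to 98.9 in heterozygous 1 and to at most 2.53 elsewhere, and 1 rod of heterozygous 1 carried 3 or more of them. Of all rods, 338 carried UMIs of 3 or more markers of another class, 172 of them of Müller glia and 147 of bipolar cells, and 59 of the 172 were in knockout 1. Counts of genes called between genotypes, and the knockout against heterozygous difference in the gene Gm8797, are therefore given with and without these 338 cells. Other differences between genotypes are given with these cells only. The part of Müller RNA in any difference that involves knockout 1 was not tested further. Amacrine, ganglion cell, horizontal, microglial, vascular, astrocyte, retinal pigment epithelium and lens markers each summed to at most 98.6 in any retina. The pigment epithelium markers Rpe65 and Best1 and the lens markers Cryba4 and Crybb2 were at 0 in all rods.

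No Sstr2 UMI was counted in rods of any genotype. The count was 0 of 2271 rods, which allows a share of up to 0.132% of rods with a UMI and a level of up to 0.367 CPM. Somatostatin itself (Sst), Sstr1 and the related peptide cortistatin (Cort) were at 0 in rods as well. Sstr2 was found in 5 of 68 amacrine cells (7.35%, median 4513 UMIs) and in no cone, bipolar cell or Müller glial cell. The level of the deleted gene therefore gives no check of the genotype labels in rods. Over all P14 cells Sstr2 had 2 UMIs in wild type, 2 and 0 in heterozygous and 1 and 13 in knockout retinas, so knockout 2 was the highest (4.30 CPM, against 0.340 in wild type). Over all P0 cells Sstr2 was at 14.1 CPM in wild type, 22.3 and 33.5 in heterozygous and 41 and 43.3 in knockout retinas and was highest in both knockout retinas. At both ages these counts go against the genotype labels if the counted part of the transcript is deleted, and the retinas are named here as labelled. Counts come from the 3' end of transcripts and the place of the deletion relative to them was not given in the sources used here, so the labels could not be checked this way. The sexes were mixed. Xist, the RNA that coats the inactive X chromosome, was at 3.0 CPM in wild type, 8.86 and 1088 in heterozygous and 19.4 and 9.69 in knockout rods. The Y-linked Ddx3y was at 61.8 CPM in wild type, 76.8 and 9.62 in heterozygous and 61.5 and 68.5 in knockout retinas. Heterozygous 2 was thus the single Xist-high retina at P14, and sex could not be told apart from that retina. Its rods still held Y-linked RNA, with Eif2s3y at 13.2 CPM there and at 44.9 to 51.9 elsewhere. At P0, Xist was high in the photoreceptors of heterozygous 1 and knockout 2 (2076 and 2092 CPM), with Ddx3y at 0.495 and 0. The source of the Y-linked RNA in P14 heterozygous 2 was not tested.

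From P0 photoreceptors to P14 rods the genes of the light response rose together, and 4 of those named here were among the 10 genes with the largest rises. Among 9409 genes tested over the 10 retinas, 3436 rose (36.5%) and 3361 fell (35.7%) at an adjusted p under 0.05 (edgeR quasi-likelihood test, genotype in the model). The median log2 fold change over all genes was 0.02. All counts of genes that rose or fell below are to be read against those shares. Age, library, litter and the cell annotation changed together, and no cone class was annotated at P0, so their parts cannot be told apart. The median P0 photoreceptor held 4535 UMIs, more than the median rod.

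The 10 largest rises among genes at 100 or more CPM included those of Guca1b, Gnat1, Drd4, Slc24a1, Esrrb, Kcnj14, Pde6a and Cds1. Slc24a1, the calcium exchanger of the rod outer segment, was at 1480.5 CPM in wild type, 1459.9 and 1552 in heterozygous and 1634 and 1468 in knockout retinas at P14. In P0 photoreceptors it was at 0.685 CPM in wild type, 0.495 and 1.06 in heterozygous and 0.948 and 1.44 in knockout retinas (log2 fold change 10.76 ± 0.14), so that the ages were far apart. Gnat1 had 3 UMIs over all P0 photoreceptors and 34253 in rods, a ratio of 10914 after scaling to depth, with a counting interval from 3734 to 52924. Guca1b, a calcium sensor that activates guanylate cyclase, had no UMI at P0 and stood at 1341 ± 80.5 at P14, at least 3431-fold higher against a floor of 3 UMIs over the P0 group. Esrrb, an orphan nuclear receptor expressed in mature rods, was likewise at 0 at P0 and at 126 ± 19.1 at P14, at least 313-fold higher. The dopamine receptor gene Drd4 rose from 0.577 ± 0.624 to 929 ± 115 CPM. The potassium channel gene Kcnj14 had 1 UMI at P0 (ratio 1164, interval 209 to 46022) and the phospholipid enzyme gene Cds1 had 2 (ratio 539, interval 149 to 4457). No P0 retina reached the level of any P14 retina for these genes.

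All 21 phototransduction genes were tested and all 21 rose, with a median log2 fold change of 6.00 with Guca1b at its bound. The activation steps differed in where they stood at birth. Of transducin, the alpha subunit gene Gnat1 was all but absent at P0. The gamma subunit gene Gngt1 was already at 375 ± 104 CPM and the beta subunit gene Gnb1 at 306 ± 53.1 (rises of 5.60 and 4.31 on the log2 scale). Of the phosphodiesterase, the catalytic subunit genes rose by 9.05 (Pde6a) and 5.48 (Pde6b) and the inhibitory subunit gene Pde6g by 4.87, from 294 ± 57.7 to 7666 ± 1118. The channel subunit genes Cnga1 and Cngb1 rose by 6.50 and 5.11, and the exchanger gene Slc24a1, which removes calcium from the outer segment, by 10.76. Genes of recovery from light rose across a wide range. The smallest named here were those of Pdc, which binds transducin beta and gamma and was already at 1354 ± 291 at P0 (log2 fold change 2.68 ± 0.10), and Rgs9, which speeds transducin's shut-off (log2 fold change 2.90 ± 0.10). Steeper rises were those of Sag (log2 fold change 4.93 ± 0.10), Rcvrn (log2 fold change 6.77 ± 0.11) and the kinase gene Grk1 (log2 fold change 7.19 ± 0.14). Relative to the mean, the spread between retinas at P14 was widest for Guca1a. It was at 513 CPM in wild type, 391 and 931 in heterozygous and 687 and 445 in knockout retinas. Both knockout retinas lay between the heterozygous ones.

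**Figure D2:**
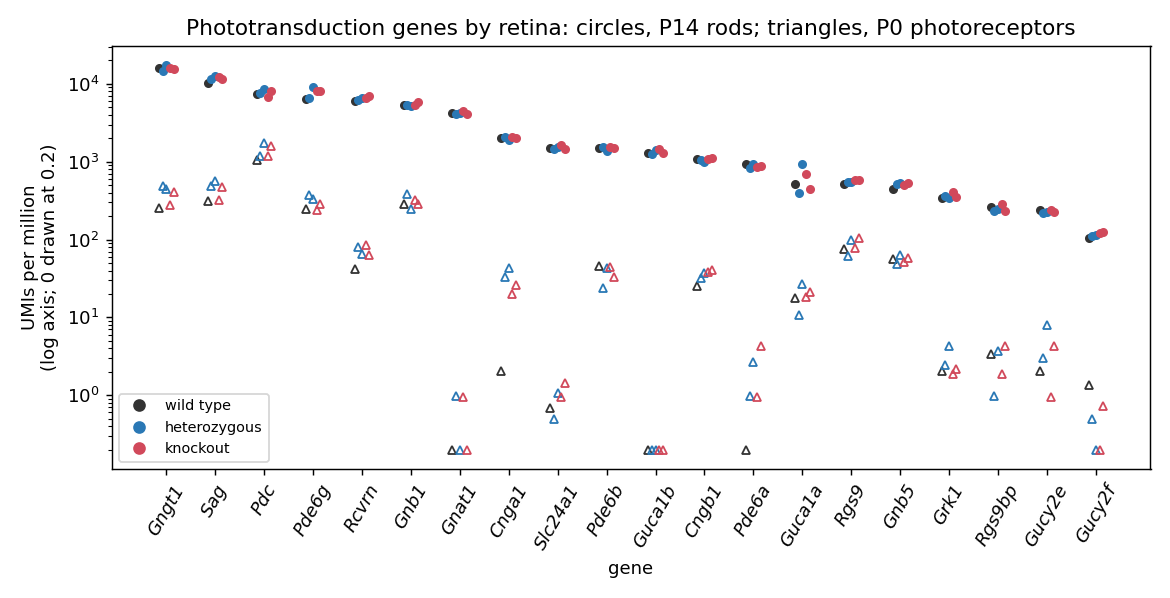
CPM (log axis) of 20 phototransduction genes, ordered by their mean in P14 rods. Circles are the 5 P14 rod samples and open triangles the 5 P0 photoreceptor samples, coloured by genotype, and every P14 retina lay above every P0 retina for these 20 genes.

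The promoters of genes that rose together are shown for Sag, Cnga1 and Cngb1, the 3 most abundant list members whose RefSeq start coincides with a GENCODE start and whose window held a motif match. Each line gives the 250 bases before the start, 5' to 3' on the strand of the gene, from the RefSeq promoter table of build GRCm38.p6. Capitals mark TAATCC, the core that CRX and OTX2 recognise, or its reverse complement GGATTA, and TGCTGA, part of the NRL response element, or its reverse complement TCAGCA. The windows are chr1:87803430-87803679 on the plus strand, chr5:72642753-72643002 on the minus strand and chr8:95306586-95306835 on the minus strand.
Sag: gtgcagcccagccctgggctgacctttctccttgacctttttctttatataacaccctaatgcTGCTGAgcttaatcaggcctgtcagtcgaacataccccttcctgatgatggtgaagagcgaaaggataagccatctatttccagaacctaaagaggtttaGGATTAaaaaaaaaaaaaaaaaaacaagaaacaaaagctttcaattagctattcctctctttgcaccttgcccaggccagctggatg
Cnga1: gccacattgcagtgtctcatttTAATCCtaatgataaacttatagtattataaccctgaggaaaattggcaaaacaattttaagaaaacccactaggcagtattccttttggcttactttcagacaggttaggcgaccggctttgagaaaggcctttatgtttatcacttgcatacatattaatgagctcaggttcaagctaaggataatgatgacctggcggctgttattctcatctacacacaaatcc
Cngb1: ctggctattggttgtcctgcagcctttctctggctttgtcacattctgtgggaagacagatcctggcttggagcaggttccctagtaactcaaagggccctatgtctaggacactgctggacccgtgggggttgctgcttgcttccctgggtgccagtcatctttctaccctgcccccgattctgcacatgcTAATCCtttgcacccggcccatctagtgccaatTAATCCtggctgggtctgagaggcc
Of the 21 list members, 14 had an entry in the table. TAATCC or its reverse complement was in the 250 bases of 8 of these 14 (57.1%), against 6.38% of all 27025 promoters of the same length. TGCTGA or its reverse complement was in 3 of 14 (21.4%), against 15.8% of all. The motifs do not overlap each other in the printed windows, and a match is a description of the letters and not a shown binding site.

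Among the 13 transcription factor genes that shape rods, 8 rose and 3 fell. Nrl was at 329 CPM in wild type, 281 and 392 in heterozygous and 358 and 451 in knockout retinas at P0 and all 5 rod values were higher (1897 ± 164, log2 fold change 2.56 ± 0.09). Nr2e3, which represses cone genes in rods, rose from 591 ± 53.6 to 2241 ± 233 (log2 fold change 2.09 ± 0.07). Crx, which acts in all photoreceptors, rose from 260.1 ± 20.3 to 625 ± 11.6 (log2 fold change 1.44 ± 0.07). Samd11 and Samd7, partners of CRX in keeping other genes silent, rose by 2.56 and 2.11, and Casz1 and Mef2d by 1.39 and 1.26. The 3 that fell act early in the lineage. Otx2, which starts the photoreceptor programme, went from 807 ± 61 to 216 ± 11.7 (log2 fold change -1.73 ± 0.07). Prdm1, which holds precursors back from the bipolar fate, went from 303 ± 52.6 to 30.8 ± 5.41 (log2 fold change -3.14 ± 0.10), and Rorb, which acts upstream of Nrl, from 2013 ± 145 to 525 ± 91.7 (log2 fold change -1.78 ± 0.10). Neurod1 and Prox1 did not pass the test, at 2385 ± 328 and 1904 ± 147 CPM for Neurod1 at P0 and P14 and a log2 fold change of -0.18 for Prox1.

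Of the 24 outer segment and cilium genes, 22 were tested and all 22 rose, with a median log2 fold change of 2.41. The disc rim protein genes Prph2 and Rom1 rose by 5.32 and 3.31, to 3709 ± 96.2 and 4759 ± 172 CPM, and Rp1 by 4.35. Among genes of the cilium, Fam161a rose by 4.37, Rpgrip1 by 2.36, Cep290 by 1.69 and Rpgr, from 82.3 ± 8.90 to 107 ± 9.18, by 0.54. Retinoid genes ranged from Abca4, the flippase of the discs (log2 fold change 1.71 ± 0.10), to Rdh12, a retinol dehydrogenase (log2 fold change 8.05 ± 0.16). Mertk, the phagocytosis receptor of the pigment epithelium, and Rdh8 did not pass the filter on low counts, and Mertk was at 0.607 CPM in rods. Of the 20 synapse genes, 19 were tested and 18 rose, with a median of 2.12. The steepest were Cabp4, which tunes the presynaptic calcium channel (log2 fold change 8.24 ± 0.18), Cacnb2, one of the subunits of that channel (log2 fold change 7.14 ± 0.21), and Cplx4, a complexin of ribbon synapses (log2 fold change 6.79 ± 0.11). They were followed by Slc17a7, which loads glutamate into vesicles (log2 fold change 5.13 ± 0.09). The active zone genes Rims2 and Unc13b rose by 2.72 and 2.75, and Bsn by 0.67. Pclo, another active zone gene, did not pass the test, at 84.2 ± 19.5 at P0 and 86.7 ± 4.12 at P14. Rims1, at 2.61 CPM of rods, was under the filter on low counts.

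Genes of chromatin and the nuclear envelope mostly fell, 8 of the 11 tested against 3 that rose. Rod nuclei of nocturnal mammals place heterochromatin at the centre, and mature mouse rods lack the lamin B receptor and lamin A/C. Lbr, the lamin B receptor gene, went from 45.9 ± 9.48 to 16.7 ± 5.02 CPM (log2 fold change -1.25 ± 0.19). Lmna was at 4.56 ± 2.49 and 2.18 ± 0.312, under the filter on low counts. The linker histone gene H1f0 fell by 2.79, Cbx5, which encodes a heterochromatin protein, by 2.14 and Hmgb2 by 2.02 on the log2 scale, and Hmgn1 rose from 1254 ± 87.4 to 4153 ± 149.

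Most energy genes rose, and members of the same enzyme family moved in opposite directions. Of 22 tested genes of glycolysis and energy use, 17 rose and 4 fell, with a median of 1.63. The hexokinase genes Hk1 and Hk2 rose from 18.6 ± 4.67 to 306 ± 26.9 and from 17.9 ± 4.54 to 142 ± 43.9 CPM, Aldoa by 2.60, and Slc16a1, a lactate carrier, by 4.69. Ldha was high at both ages (1524 ± 216 and 1726 ± 42.9, log2 fold change 0.36 ± 0.07), and Ldhb fell (log2 fold change -2.51 ± 0.16). Of the creatine kinase genes, the cytosolic Ckb fell (log2 fold change -1.58 ± 0.11) and the mitochondrial Ckmt1 rose (log2 fold change 3.67 ± 0.15). Of the 13 mitochondrially encoded transcripts, 9 rose and none fell, with a median of 0.38.

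Most genes of precursors and dividing cells fell from P0 photoreceptors to P14 rods. Of 14 tested genes of immature neurons, 13 fell and none rose (median -4.40), and of 11 tested genes of progenitors and the cell cycle 10 fell and none rose (median -4.40). The 10 largest falls among genes at 100 or more CPM at P0 included those of Hist1h1b, Mdk, Abracl, Ccnd1, Mki67, Sox11, Stmn1, Ppp1r14b and Mex3a. Stmn1, a microtubule regulator of growing neurons, went from 1802 ± 399 to 16.4 ± 2.72 CPM. Sox11, a factor of newborn neurons, went from 219 ± 58.3 to 1.62 ± 1.10, and the cyclin gene Ccnd1 from 1056 ± 214 to 6.56 ± 2.66. The linker histone gene Hist1h1b of dividing cells had 2 UMIs in all rods, so P0 was higher by 2098-fold with a counting interval from 580.3 to 17327. Several of these genes were higher still in the cells annotated as progenitors in the same P0 library, at means of 3885 (Ccnd1), 1415 (Hist1h1b), 440.2 (Mki67) and 2481 (Stmn1) CPM. The part of free progenitor RNA in the P0 levels was not tested. Neurod4, Sox4 and Mex3a were higher in P0 photoreceptors (1329 ± 218, 1175 ± 136 and 146 ± 15.5) than in P0 progenitors (15.5, 500.0 and 78). Neurod4 then fell to 18.8 ± 4.11 and Sox4 to 16.9 ± 4.0 in rods. Insm1 fell less (278 ± 25.3 and 159 ± 19.6, log2 fold change -0.63 ± 0.09) and Thrb did not pass the test. Hmgn2, a nucleosome-binding protein gene of the progenitor list, was at 1058 ± 279 CPM at P0 and 1053 ± 134 at P14 and did not pass the test either.

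Of the 9 cone genes tested, 7 fell. Gngt2, the gamma subunit of cone transducin, went from 1884 ± 654 to 19.2 ± 4.72 CPM (log2 fold change -6.45 ± 0.14) and Opn1sw from 226 ± 85.2 to 21.8 ± 3.68 (log2 fold change -3.15 ± 0.17). Arr3 and Guca1a, which is shared with rods, were the 2 that rose. Genes of the immediate early response to stimulation and cell handling rose in 12 and fell in 3 of 18 cases. Fos was at 186 ± 40.5 at P0 and 1668 ± 306 at P14, and Egr1 at 286 ± 80.3 and 1303 ± 260.4. These genes also respond to dissociation, and the part of dissociation in the age comparison was not tested.

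**Figure D3:**
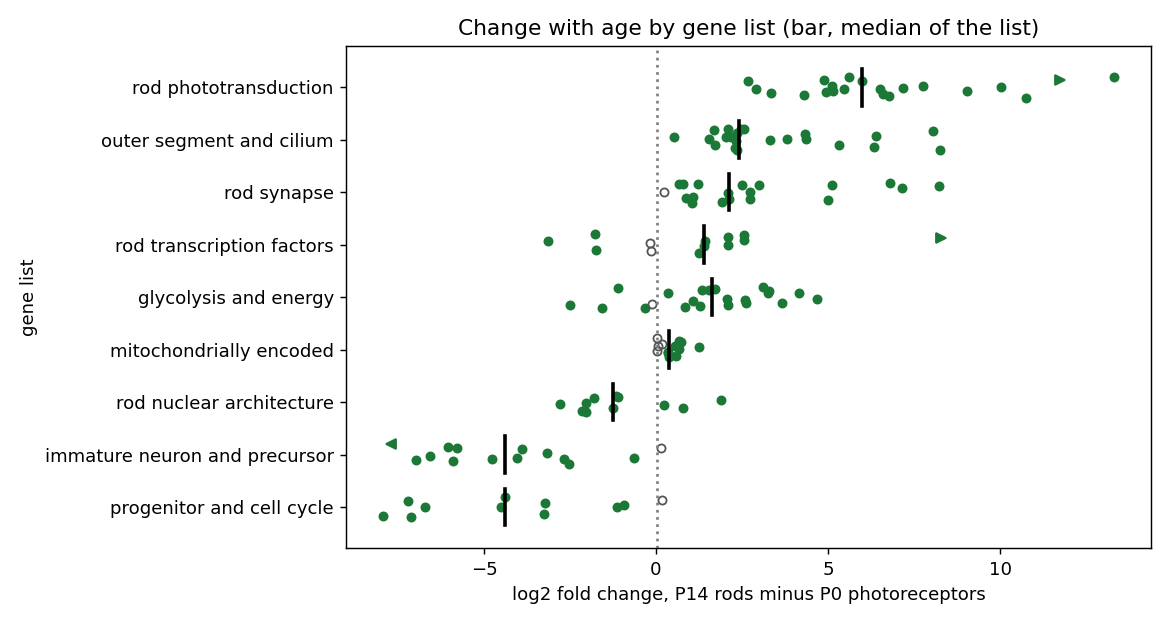
Log2 fold change from P0 photoreceptors to P14 rods for the tested genes of 9 lists, 1 point a gene. Filled circles passed an adjusted p under 0.05, open circles did not, triangles are genes at 0 in one group drawn at their bound, thick bars are list medians and the dotted line is the median of all genes. All 21 phototransduction and all 22 outer segment genes lay to the right of 0, and 13 of 14 immature neuron genes lay past the threshold to the left.

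Between genotypes very few genes passed the adjusted threshold in rods. Knockout rods differed from heterozygous rods in 1 of 9474 genes (0.0106%), knockout from wild-type rods in 2 (0.0211%) and heterozygous from wild-type rods in 3 (0.0317%) (edgeR quasi-likelihood test, adjusted p under 0.05). None of the genes was a rod marker or a photoreceptor gene of the lists described above. At an unadjusted p under 0.05 the counts were 274, 290 and 317 genes, or 2.89%, 3.06% and 3.35% of those tested. Log2 fold changes beyond 1 in either direction were found in 201, 228 and 224 genes, nearly all of them not past the adjusted threshold. The 3 comparisons share retinas, and the single wild-type retina has no replicate, so its spread is taken from the other 4.

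Gm8797 passed the threshold in all 3 comparisons by edgeR, and by DESeq2 in all but that of heterozygous with wild-type rods (adjusted p = 0.12, DESeq2). It was at 496 CPM in wild type, 246 and 250.2 in heterozygous and 37.9 and 36 in knockout rods, or 1325, 499, 208, 45 and 52 UMIs. The knockout retinas lay far below the heterozygous ones and those below the wild type without overlap. It fell from heterozygous to knockout (log2 fold change -2.77 ± 0.14, adjusted p = 4.9e-07), from wild type to knockout (log2 fold change -3.73 ± 0.15, adjusted p = 2.0e-08) and from wild type to heterozygous (log2 fold change -0.96 ± 0.13, adjusted p = 0.014), all by edgeR. Without knockout 2 the first of these was -2.74 and did not pass (adjusted p = 0.095, edgeR), and without either knockout retina the last did not pass, its fold change staying between -0.98 and -0.93 on leaving out 1 retina. Gm8797 lies on another chromosome than Sstr2, at chr3:5750806-5751295 in GENCODE M21 (GRCm38, plus strand, annotated as protein coding), while Sstr2 is at chr11:113619342-113626028. Over 384 bases of its 490-base transcript it is 98.2% identical to the polyubiquitin gene Ubb, and over 392 bases 98.7% identical to the related Gm1821. Its counts are uncertain and may depend on how reads were split among these copies. Unlike Gm8797, Ubb lies on the same chromosome as Sstr2, at chr11:62551171-62553213. Ubb itself was at 2972 CPM in wild type, 3114 and 3337 in heterozygous and 3299 and 3527 in knockout retinas. The knockout retinas were also the lowest in the cones, bipolar cells and Müller glia of the P14 library. In Müller glia Gm8797 was at 436 CPM in wild type, 209 and 223 in heterozygous and 35.6 and 28.4 in knockout retinas. In bipolar cells it was at 389.7 CPM in wild type, 203 and 242 in heterozygous and 34.9 and 23.2 in knockout retinas. In the 68 amacrine cells it was at 477 CPM in wild type, 150.3 and 0 in heterozygous and 15.5 and 100.1 in knockout retinas, and there heterozygous 2 was the lowest. In P0 photoreceptors, which came from other animals, it was at 249 CPM in wild type, 457 and 223 in heterozygous and 24.6 and 18 in knockout retinas, and again lowest in the knockout retinas. There the wild-type retina lay between the heterozygous ones.

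Alox5ap, which presents arachidonic acid to 5-lipoxygenase, was at 3.75 CPM in wild type, 27.6 and 33.7 in heterozygous and 45.5 and 51.2 in knockout rods, or 10 UMIs in the wild-type retina and between 28 and 74 in the others. The wild-type retina lay apart from the other 4, and both knockout retinas lay above both heterozygous ones. It was higher than wild type in knockout rods (log2 fold change 3.69 ± 0.35, adjusted p = 4.6e-04, edgeR) and in heterozygous rods (log2 fold change 3.01 ± 0.37, adjusted p = 0.0099, edgeR). Knockout and heterozygous rods did not differ past the threshold in this gene (log2 fold change 0.68 with a 95% interval from 0.21 to 1.16, adjusted p = 1 by edgeR). Without knockout 2 neither difference from wild type passed, and without knockout 1 the heterozygous difference did not. The fold changes themselves stayed between 3.59 and 3.77 for knockout and between 2.89 and 3.20 for heterozygous rods on leaving out 1 retina. In cones it was at 7.46 CPM in wild type, 53.6 and 146 in heterozygous and 102 and 136 in knockout retinas, with the wild-type retina again the lowest. In bipolar cells it was at 5.01 CPM in wild type, 30.2 and 10.8 in heterozygous and 9.53 and 7.14 in knockout retinas. These were 36 UMIs in all, with wild type again lowest but both knockout retinas below both heterozygous ones. In P0 photoreceptors it was at 5.48 CPM in wild type, 0 and 0 in heterozygous and 0 and 6.49 in knockout retinas, so the wild-type retina was not the lowest there. Lrpprc, a factor that stabilises mitochondrial messenger RNA, was at 137 CPM in wild type, 44.3 and 42.1 in heterozygous and 91.9 and 85.1 in knockout retinas, so it was lowest in the heterozygous and highest in the wild-type retina. It fell from wild type to heterozygous (log2 fold change -1.61 ± 0.16, adjusted p = 0.0019, edgeR). On leaving out 1 retina the fold change stayed between -1.64 and -1.60, and it did not pass the test without knockout 2. Its level did not follow the number of Sstr2 copies. Other P14 types varied, with knockout 2 lowest in cones (28.3 CPM), bipolar cells (35.7) and amacrine cells (12.5). In Müller glia the heterozygous retinas were again the lowest (8.40 and 6.75 CPM). Between knockout and heterozygous rods Lrpprc passed with no filter on low counts, with a sex term and without the 5% of cells that Scrublet scored highest. In P0 photoreceptors it was at 25.4 CPM in wild type, 25.2 and 27.6 in heterozygous and 23.7 and 23.8 in knockout retinas. Mxra7, a matrix-remodelling-associated gene chosen here after its values were seen, was at 42.3 CPM in wild type, 53.6 and 72.2 in heterozygous and 91.9 and 81 in knockout retinas. Its retinas lay in the order of genotype, but it did not pass the test in any of the 3 comparisons (adjusted p at least 0.31 by edgeR). Between knockout and wild type it did pass with no filter on low counts, with a sex term, and without heterozygous 1 or heterozygous 2. In P0 photoreceptors Mxra7 was at 200 CPM in wild type, 213 and 218 in heterozygous and 261 and 272 in knockout retinas, in the same order of genotype. Mxra7 was 421 CPM in Müller glia against 62.2 in rods, and the part of Müller RNA was not tested for it. Alox5ap is at chr5:149264767-149288153 and overlaps the antisense gene Gm19719 and the annotated ribosomal RNA n-R5s180, Lrpprc is at chr17:84705247-84790789, and Mxra7 is at chr11:116803062-116828046, on the same chromosome as Sstr2. The part of linked strain alleles in the Mxra7 levels was not tested.

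**Figure D4:**
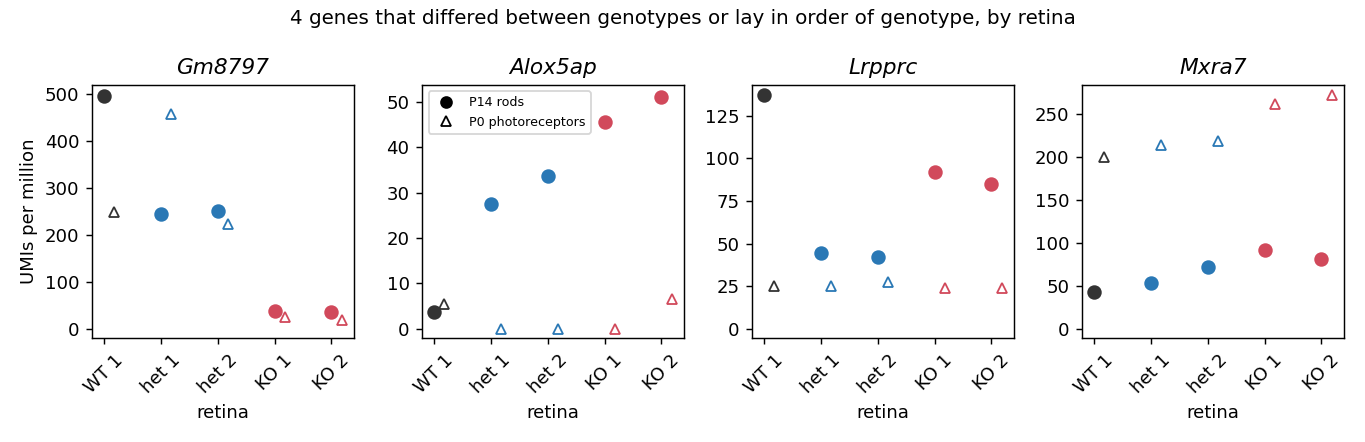
CPM of Gm8797, Alox5ap, Lrpprc and Mxra7 in each retina, with filled circles for P14 rods and open triangles for P0 photoreceptors, in black for wild type (WT), blue for heterozygous (het) and red for knockout (KO). Gm8797 was lowest in both knockout retinas at both ages, Alox5ap was lowest in the wild-type rods, and Lrpprc was lowest in the heterozygous rods.

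The genes that define rods differed little between heterozygous and knockout rods. Among tested genes of the transcription factor, phototransduction, outer segment and synapse lists, the 30 most abundant of those reported here had log2 fold changes between -0.15 and 0.24 from heterozygous to knockout, and 29 of the 30 intervals held 0. The intervals reached from -0.36 to 0.44, so a change of 1 on the log2 scale in either direction lay outside all 30. For Gnat1 the difference was -0.00098 with a 95% interval from -0.19 to 0.18. Nrl differed by 0.02 with a 95% interval from -0.18 to 0.23 and Crx by -0.06 with a 95% interval from -0.26 to 0.15. Otx2 differed by -0.03 with a 95% interval from -0.28 to 0.23. Among all tested members of these lists, the intervals of Nr2e3, Prom1 and Samd7 did not hold 0. Prom1 differed by 0.26 with a 95% interval from 0.0021 to 0.51 and Samd7 by -0.28 with a 95% interval from -0.54 to -0.03. Nr2e3 was the exception among the 30. Its level was 2238 CPM in wild type, 2182 and 1885 in heterozygous and 2436 and 2462 in knockout retinas. The difference was 0.24 with a 95% interval from 0.05 to 0.44, which did not pass the adjusted threshold (adjusted p = 1, edgeR). The list medians were 0.02 (phototransduction, 21 tested), 0.01 (outer segment, 23 tested), 0.04 (synapse, 19 tested) and -0.01 (transcription factors, 13 tested) against -0.0033 over all genes. Against wild type, the phototransduction median was 0.10 in knockout and 0.11 in heterozygous rods, and 0.01 over all genes in both. In knockout rods 2 of 13 transcription factor and 1 of 21 phototransduction genes had an unadjusted p under 0.05 (edgeR), against 3.06% of all genes. In heterozygous rods 4 and 3 did, against 3.35%, and Esrrb differed by 0.53 with a 95% interval from 0.17 to 0.88. No member of these lists passed the test in any of the 3 genotype comparisons. Among the alternatives run, Pde6g passed between knockout and wild type with no filter on low counts, and Pde6g and Guca1a between heterozygous and wild type without heterozygous 1.

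**Figure D5:**
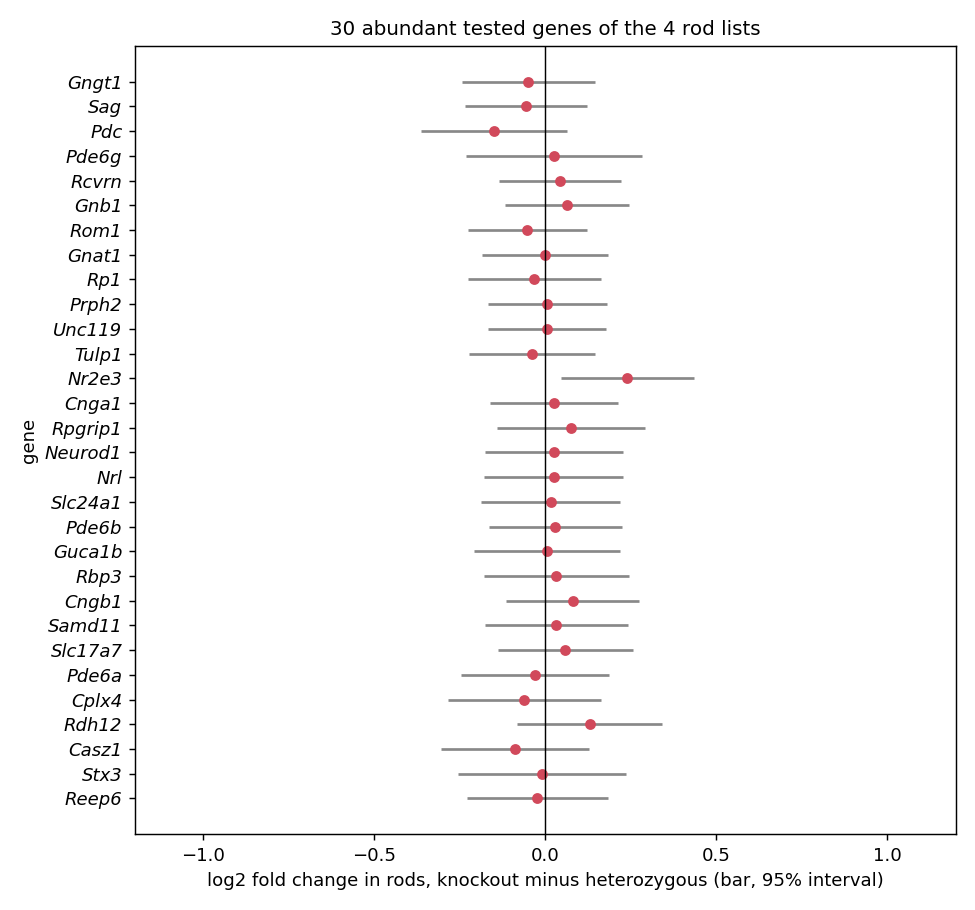
Log2 fold change in P14 rods from heterozygous to knockout for the 30 most abundant tested genes of the 4 rod lists among those reported here, with bars for the 95% interval of the edgeR fit. All bars but that of Nr2e3 crossed 0, and all lay inside 1 on either side.

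By the rule for named genes, the largest differences upward from heterozygous to knockout in CPM with no overlap between the retinas were in Nr2e3, the creatine kinase gene Ckb and the ribosomal protein gene Rpl26. The largest downward were in Gapdh, Gm8797 and the ribosomal protein gene Rps29. Ckb was at 1015 CPM in wild type, 755 and 922 in heterozygous and 1072 and 1246 in knockout retinas, with knockout 2 the highest (log2 fold change 0.45 ± 0.12, adjusted p = 1 by edgeR). It did pass with no filter on low counts, with a sex term and without heterozygous 2, the Xist-high retina, and ranged from 0.29 to 0.61 on leaving out 1 retina. Rpl26, Gapdh and Rps29 differed by 0.20, -0.15 and -0.13 on the log2 scale. On leaving out 1 retina, Nr2e3 ranged from 0.16 to 0.34 and Rpl26 from 0.14 to 0.26. Gapdh ranged from -0.24 to -0.05 and Rps29 from -0.17 to -0.08. Against wild type, knockout rods had the largest differences upward in Gm42418, Pde6g and Sag (0.31, 0.37 and 0.22) and, beside Gm8797, the largest downward in Fos and Egr1 (-0.47 and -0.51). Heterozygous rods had the same 3 upward (0.33, 0.35 and 0.27) and, downward, Malat1, Cst3 and Fos (-0.07, -0.35 and -0.26), and apart from Gm8797 none of these genes passed the adjusted threshold. Cst3 ranged from -0.87 to 0.0493 on leaving out 1 retina, turning sign without heterozygous 1, and passed without heterozygous 2. Between knockout and wild type, Egr1 passed with a sex term, without heterozygous 2 and with no filter on low counts, and Fos and Pde6g passed with no filter. Between heterozygous and wild type, Gm42418 passed with no filter and Pde6g without heterozygous 1. Rpl26, named above for knockout against heterozygous, passed between knockout and wild type with a sex term, without heterozygous 2 and with no filter. Fos, an immediate early gene, was at 2069 CPM in wild type, 1916 and 1418 in heterozygous and 1394 and 1542 in knockout retinas, highest in the wild-type retina. Egr1 was at 1653 CPM in wild type, 1504 and 1069.5 in heterozygous and 1184 and 1105 in knockout retinas. From wild type to heterozygous, Fos ranged from -0.48 to -0.08 and Pde6g from 0.09 to 0.56 on leaving out 1 retina. Sag ranged from 0.18 to 0.36 there and Malat1 from -0.12 to -0.03. Because only 1 retina was wild type, its genotype and its handling cannot be told apart. Among the 18 immediate early and dissociation genes the median from wild type to knockout was -0.20 and from heterozygous to knockout -0.14.

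In the other lists single retinas stood out. All 13 mitochondrially encoded transcripts were lower in knockout than in heterozygous rods on average (median log2 fold change -0.22, none past the adjusted threshold). The most abundant, mt-Co3, was at 10212 CPM in wild type, 11183 and 11950 in heterozygous and 12093 and 8527 in knockout retinas, with knockout 2 the lowest and knockout 1 the highest of the 5. Of 22 tested energy genes none passed the test (median -0.02), and Hk2, at 103 CPM in wild type, 150.1 and 214 in heterozygous and 119 and 122 in knockout retinas, was highest in heterozygous 2 and passed between knockout and heterozygous without heterozygous 1. Between heterozygous and wild-type rods 7 of the 22 energy genes had an unadjusted p under 0.05 (edgeR), against 3.35% of all genes. In each of the other 2 comparisons 2 of the 22 did. Hk2 and Pgam1 passed the adjusted threshold between heterozygous and wild type with no filter on low counts. The Müller list had a median of 0.43 from heterozygous to knockout over 9 tested genes, none past the threshold. Glul was at 107 CPM in wild type, 110.3 and 79.4 in heterozygous and 203 and 81 in knockout retinas and Rlbp1 at 24.3 CPM in wild type, 24.6 and 20.5 in heterozygous and 85.1 and 22.1 in knockout retinas, both highest in knockout 1, and Rlbp1 passed between knockout and heterozygous and between knockout and wild type with no filter on low counts. Of the 8 tested precursor and 7 tested progenitor genes none passed the test (medians -0.04 and 0.26). Genes of stress and gliosis were at low levels, with 5 of 14 tested and none past the threshold (median 0.09). The apoptosis gene Bax was at 82.4 CPM in wild type, 83.7 and 92.6 in heterozygous and 80.9 and 85.8 in knockout retinas. Among genes that could pass a somatostatin signal onward, the alpha subunits of inhibitory G proteins ranged from Gnai1, Gnai2 and Gnai3 at 1.52, 18.1 and 21.2 CPM of rods to Gnao1 at 38.9 ± 8.89 and Gnaz at 137 ± 12. The adenylyl cyclase gene Adcy1 was at 163 ± 21.5, and none of the 6 tested passed the genotype test.

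The same contrast at P0 gave 6 genes of 10129 (0.0592%) that differed between knockout and heterozygous photoreceptors (edgeR, 2 higher, 0.0197%, and 4 lower, 0.0395%). Gm8797 was among them, with a log2 fold change of -4.01 ± 0.34. The difference of the contrast between P14 rods and P0 photoreceptors was tested as an interaction in 10926 genes, and no gene passed the adjusted threshold in edgeR (465 at an unadjusted p under 0.05) or in DESeq2 (67). For Gm8797 the interaction was 1.24 ± 0.45 and for Lrpprc 1.14 ± 0.27 on the log2 scale (adjusted p = 0.99 for both, edgeR). On leaving out 1 retina, that of Gm8797 ranged from 0.64 to 1.68 and that of Lrpprc from 1.09 to 1.22. For Alox5ap, at 17 UMIs in all P0 photoreceptors, it was -4.81 ± 1.66 (adjusted p = 0.99, edgeR), turning sign without P0 knockout 2. At P0 Sstr2 was detected in the photoreceptor class at 4.12 CPM on average, over 29 UMIs, against none in P14 rods. P0 progenitors held a mean of 3.39 CPM, and all P0 cells together 14.1 to 43.3 CPM a retina. The part of free RNA from other cells in the photoreceptor level was not tested. Without knockout 2, the 3 P14 contrasts gave 0, 1 and 0 genes. Without heterozygous 2, the Xist-high retina, the counts rose to 26, 25 and 37 genes, and without heterozygous 1 to 8, 10 and 17. Without the 338 rods with 3 or more markers of another class the counts were 1, 8 and 6, and Gm8797 differed by -2.81 between knockout and heterozygous rods.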

How the data were processed

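Retinal cells were tagged with MULTI-seq barcodes and run as 3 libraries (explant, P0 and P14), and the explant library was not used here except to count shared barcodes. The authors aligned reads and assigned cells with Cell Ranger 3.1.0 (mm10) and Seurat 3, per the submitters' processing notes, and deposited whole-number UMI counts per gene and cell, SCTransform-corrected values on a natural log scale (log of corrected count plus 1) and cell annotations. The retinas that the deposited annotation calls Control were taken as wild type.

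Counts of rods were summed per retina from the deposited raw counts (P0 photoreceptors likewise). Genotypes were compared with edgeR 4.0.16 (R 4.3.3; filterByExpr, TMM, quasi-likelihood test, all 5 retinas in 1 fit), and ages over the 10 retinas with genotype as a term, with Benjamini-Hochberg adjustment over all genes tested. Errors of log2 fold changes are standard errors. Alternatives used DESeq2 1.42.0 and limma 3.58.1. Single values were compared by exact permutation. Scripts were tested on simulated data. The members and gene lists were chosen with earlier results of these data known. Named genes were those past the threshold (up to 20), the 3 largest rises and falls in mean CPM with 50 or more UMIs and no overlap between genotypes, and for age the 10 largest fold changes each way at 100 or more CPM in the higher group. Gene positions are from GENCODE M21 (GRCm38), and transcripts were matched with blastn 2.17.0. Rods held from 831215 to 2670121 UMIs a retina, which limits the precision for low genes, and a floor of 3 UMIs was used for genes at 0. Exact intervals of shares are Clopper-Pearson at 95%. Scrublet marked 2 of 3298 P14 cells and no rod, which was treated as a failed call, so doublets were not removed. Some genes that the rules would name are not reported here.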

Additional observations from a re-analysis of the deposited data

Results flagged for a closer look

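Single retinas were looked for among the 5 of each age in 43 measures and named genes, and 4 stood apart from the other 4 retinas by Dixon's test (limit 0.71), where chance marks about 1 in 20 such groups. In rods, Xist stood at 1088 CPM in heterozygous 2 and at most 19.4 in the other retinas. Stmn1 was at 11.8 CPM in the rods of knockout 2, the lowest of the 5, with the others at 16.8 to 18.7. Kcnj14 was at 0.685 CPM in the P0 photoreceptors of the wild-type retina, which is 1 UMI, and at 0 in the others. Any gene with a single UMI in the group passes this limit, so that mark carries no information. Rods were 90.9% of rods and cones in knockout 1, the lowest of the 5.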

How the results depend on the processing

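No paired analysis was possible because the labels give no replicate number that links retinas across genotypes or ages. Leaving out a retina of a pair left that genotype with 1 retina, assumed to vary like the others, and the wild-type retina could not be left out of its own contrasts. The age comparison moved least in proportion to its calls, though not in the number of genes. It had 6564 to 6887 genes called on leaving out 1 retina, 5500 on thinned counts, 6170 in DESeq2 and 8738 without a filter on low counts. Knockout against heterozygous rods gave 1 gene, and 18 without the filter, 0 in limma on the SCTransform values (426 at an unadjusted p under 0.05), 14 with a sex term, 2 without the 5% of cells that Scrublet scored highest and 0 to 26 on leaving out 1 retina. Knockout against wild type gave 2, and under the same alternatives 31, 0 (240 unadjusted), 21, 7 and 1 to 25, with 8 without the 338 rods holding markers of another class. Heterozygous against wild type gave 3, and 44, 0 (261 unadjusted), 19, 5 and 0 to 37, with 6 without those rods. DESeq2 called 1, 2 and 2 genes in these 3 contrasts. None of Gm8797, Alox5ap and Lrpprc passed in limma on the SCTransform values in any of them. At P0 the 6 genes became 120 without the filter, 9 in DESeq2 and 5 to 88 on leaving out 1 retina, and the interaction 19 and 0 to 3. The cause of these shifts was not tested. The alternatives on Scrublet scores and on markers of another class were chosen after seeing the data.

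Gm8797 kept its direction in rods under every alternative run, at -2.80 to -2.74 between knockout and heterozygous on leaving out 1 retina, but did not pass in limma and lost the threshold without knockout 2 (adjusted p = 0.095, edgeR), where Alox5ap against wild type was lost as well (adjusted p = 0.52, edgeR). Between heterozygous and wild type, without knockout 1 only Lrpprc passed and without knockout 2 none. Cst3 in that contrast ranged from -0.87 to 0.0493, turning sign without heterozygous 1, and the Alox5ap interaction from -5.66 to 0.67, turning sign without P0 knockout 2. Set against the other 3 retinas, heterozygous rods were 1.98 points higher as a share of rods and cones and 0.672 points higher in mitochondrial UMIs. The knockout differences ranged, on leaving out 1 retina, from -4.95 to 0.704 points for that share (above 0 without knockout 1), from -1.37 to 0.349 points for mitochondrial UMIs (above 0 without knockout 2), from -171 to -5.5 for UMIs per rod and from -62.75 to -1.25 for genes per rod. DESeq2 size factors moved the median of the age comparison by -0.04 and the share of calls that were higher from 50.6% to 48.5%. Standard errors between knockout and heterozygous rods had a median of 0.25 over all genes and 0.13 over the 1627 genes at 100 or more CPM. In both comparisons with wild type these medians were 0.27 and 0.15. Errors of this size limit what could be detected at this depth.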
